A study of Mus musculus with 12 samples.

Results

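The genes described here are 10 that make or remove reactive oxygen species: the NADPH oxidase genes Nox4, Cyba and Cybb, the superoxide dismutase genes Sod1, Sod2 and Sod3, and the genes of the peroxide-removing enzymes Cat, Gpx1, Gpx3 and Prdx1. They were chosen by symbol, with earlier results of these data known, and each was found once among the 14096 genes with a deposited value. Glomerular mRNA had been sequenced in 12 male mice on a C57BL/6J background, all homozygous for a knockout of endothelial nitric oxide synthase (eNOS−/−), 3 in each of 4 groups. Diabetic mice had received streptozotocin (STZ), which destroys pancreatic beta cells, at 8 weeks of age (50 mg/kg on 5 days in a row), and nondiabetic mice had received citrate buffer. From week 10 after that, for 8 weeks, mice of either kind were gavaged every day with arctigenin (ATG, a plant lignan, 40 mg/kg) or with its vehicle (5% DMSO). No group with intact eNOS was analysed here, so the effects of diabetes and of ATG are those in mice without the enzyme, and with 3 mice a group the p-values rest on the spread between few animals.

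NADPH oxidases pass electrons from NADPH across a membrane to oxygen. Cybb encodes the catalytic subunit of the phagocyte oxidase (Nox2), Nox4 encodes the oxidase that is abundant in kidney, and Cyba encodes p22phox, the membrane partner of both. Superoxide dismutases turn superoxide into hydrogen peroxide in the cytosol (Sod1), in mitochondria (Sod2) and outside the cell (Sod3). Hydrogen peroxide is then broken down by catalase in peroxisomes (Cat), by the selenium-containing glutathione peroxidases in the cytosol (Gpx1) and in extracellular fluid (Gpx3), and by peroxiredoxins such as Prdx1. In kidney, Gpx3 is known as a product of the proximal tubule, which supplies much of the enzyme found in plasma, and Cybb as a gene of macrophages and neutrophils.

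For 9 of the 10 genes, the 250 bases before the start were taken from RefSeq (GRCm38.p6), Sod3 being the exception. For Sod1 that start lies downstream of the one given in the deposited files, so the end of its window is inside the gene as listed there. Shown are those of Cat, the member that passed the test in most comparisons, and of Gpx3 and Nox4, the members with the largest differences between groups. Capitals mark a CCAAT box (CCAAT, or ATTGG on the other strand) or a GC box (GGGCGG on either strand), and each sequence runs 5′ to 3′ on the gene's strand.
Cat, chr2:103485154-103485403, minus strand: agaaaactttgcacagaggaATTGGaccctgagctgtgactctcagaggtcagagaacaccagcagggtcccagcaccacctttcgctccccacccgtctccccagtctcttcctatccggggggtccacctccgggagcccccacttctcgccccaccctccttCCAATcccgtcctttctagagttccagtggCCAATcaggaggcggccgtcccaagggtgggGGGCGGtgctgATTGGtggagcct
Gpx3, chr11:54902604-54902853, plus strand: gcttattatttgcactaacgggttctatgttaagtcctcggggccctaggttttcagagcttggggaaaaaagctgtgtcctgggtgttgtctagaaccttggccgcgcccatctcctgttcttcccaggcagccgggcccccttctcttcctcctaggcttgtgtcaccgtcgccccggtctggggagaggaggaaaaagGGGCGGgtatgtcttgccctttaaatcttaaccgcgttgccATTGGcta
Nox4, chr7:87246399-87246648, plus strand: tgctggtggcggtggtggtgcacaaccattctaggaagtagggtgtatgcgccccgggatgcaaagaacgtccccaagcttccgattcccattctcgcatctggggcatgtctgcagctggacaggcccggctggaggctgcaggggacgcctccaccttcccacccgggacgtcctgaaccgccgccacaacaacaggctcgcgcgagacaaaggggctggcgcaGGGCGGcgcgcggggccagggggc
The Cat window held 4 CCAAT boxes, that of Gpx3 held 1 and that of Nox4 held 0. Over 32851 mouse promoter windows of this length, 33.8% held at least 1 CCAAT box and 0.84% held 4 or more. A GC box was present once in each of the 3 sequences and in 32.7% of all windows. The core letters of the antioxidant response element (TGACNNNGC, either strand), which binds NRF2, were found in 10.2% of all windows and, among the members, only before Sod1 and Prdx1, once in each. These matches describe letters, and binding of a factor was not measured.

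All values are the deposited log2 values, so 1 unit is a doubling, and they are not divided by gene length. In each library, 83.4% to 84.0% of the values below 2000 reads were whole reads multiplied by 1 factor. Reads on the listed genes ranged from 23.6 to 29.8 M (mega) per mouse, and the least abundant member, Cybb, was still covered by 208 to 631 reads and varied between mice of a group with an SD of 0.18 to 0.46 log2 units. Gpx3 was covered by 53028 to 329587 reads and took between 0.178% and 1.29% of a library's linear sum, and its mean log2 value ranked 2 among all listed genes in nondiabetic vehicle-treated mice. Markers of podocytes (Nphs1, Podxl and others) and of endothelium averaged 14.7 and 13.7 log2 units in those mice, so transcripts of the labelled tissue's own cells were present. Markers of tubule were present too, lowest in diabetic vehicle mouse 3 (a mean of 10.1 for proximal tubule), and are given below with the results they touch.

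Levels of different genes can be set side by side only per length. On the scale of log2 value per kilobase of transcript, nondiabetic vehicle-treated glomeruli held Gpx3 at a mean level of 17.01, followed by Sod1 at 13.48, Gpx1 at 13.17 and Prdx1 at 13.15. Over mice, the range of Prdx1 (13.05 to 13.25) lay inside that of Gpx1 (12.89 to 13.46), and Sod1 (13.42 to 13.58) overlapped Gpx1. Cyba (11.77) and Cat (11.55) came next with ranges that overlapped, then Sod2 at 10.62, Sod3 at 10.18 and Nox4 at 9.45, and Cybb was lowest at 6.37. The same order held in nondiabetic ATG-treated mice. In both diabetic groups the order differed only in that Prdx1 stood above Gpx1, and in diabetic vehicle-treated mice Sod2 and Sod3 lay at 10.17 each. By group mean, Gpx3, Sod1, Gpx1 and Prdx1 thus made up the upper levels per length and the catalytic oxidase subunits Nox4 and Cybb the lowest in every group. In nondiabetic ATG-treated mice the range of Nox4 (10.03 to 10.68) overlapped that of Sod3 (10.32 to 10.90).

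**Figure D1:**
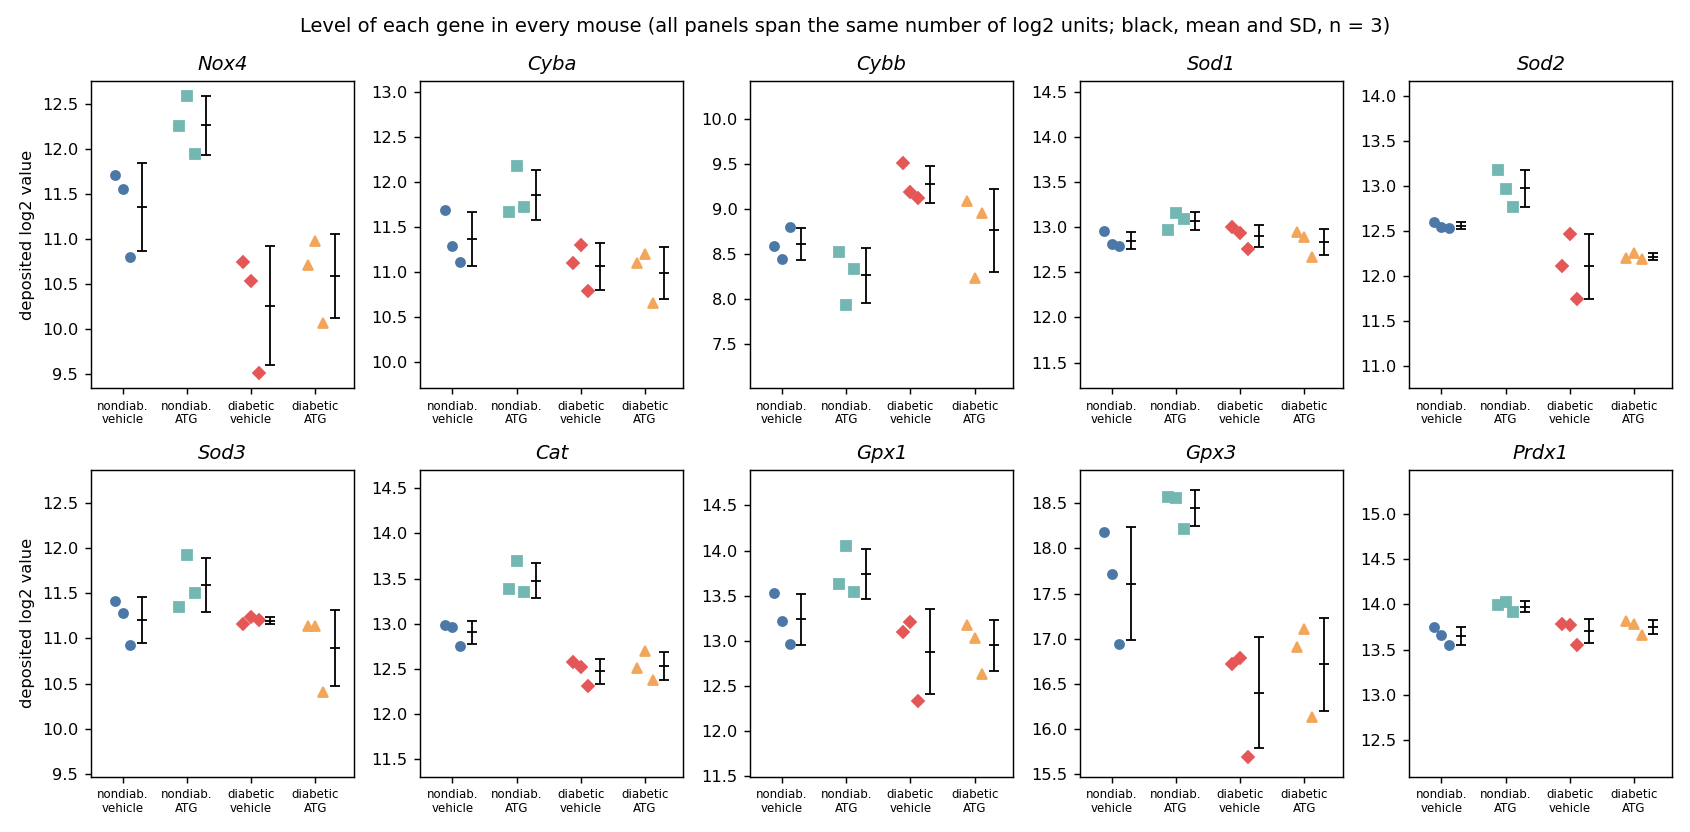
Deposited log2 value (y axis) of each of the 10 genes in every mouse, by group (x axis). Symbols are single mice and black bars the mean ± SD (n = 3), every panel spans the same number of log2 units, and Nox4 and Gpx3 show the widest range over groups while Sod1 and Prdx1 show the narrowest.

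The comparison of diabetic with nondiabetic mice under vehicle asks how these transcripts stood after long-standing diabetes. Of the 10 genes, 1 was called by limma, which here means a p under 0.05 after Benjamini-Hochberg adjustment for the 14096 genes tested, namely Cat, which was lower, while 18.9% of all listed genes were called in either direction and 8.63% were called lower. At the unadjusted threshold, 5 of the 10 had p under 0.05, against 35.5% of all genes. Their median log2 fold change was −0.33, beside 0.0075 for all listed genes. In bulk RNA, fewer cells of a type and less RNA per cell cannot be told apart, which holds for every value below.

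Nox4 stood at 11.71, 11.55 and 10.80 in the nondiabetic vehicle-treated mice and at 10.74, 10.53 and 9.51 in the diabetic ones. No diabetic mouse reached the lowest nondiabetic mouse, although the nearest pair (10.74 and 10.80) lay close together. The log2 fold change was −1.09 (SE 0.35), a 2.13-fold lower level, with adjusted p = 0.0511 (limma), just past the threshold. Cyba had a range of 11.12 to 11.69 in nondiabetic and 10.79 to 11.30 in diabetic mice, which overlapped (log2 fold change −0.30, 95% interval −0.75 to 0.14, adjusted p = 0.303, limma).

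Cybb was the only member that stood higher in every diabetic vehicle-treated mouse than in every nondiabetic one. Its values were 8.59, 8.45 and 8.80 without diabetes and 9.50, 9.19 and 9.12 with diabetes. The log2 fold change was 0.66 (SE 0.22, 1.58-fold) with adjusted p = 0.0598 (limma). The catalytic subunits Nox4 and Cybb thus differed in opposite directions, and neither passed the threshold over all genes.

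Among the superoxide dismutases, mitochondrial Sod2 was lower in all diabetic mice. Nondiabetic vehicle-treated mice had 12.60, 12.54 and 12.53 and diabetic ones 12.12, 12.46 and 11.75, a log2 fold change of −0.45 (SE 0.15, adjusted p = 0.0616, limma). Sod1 overlapped between groups, with a log2 fold change of 0.048 and a 95% interval from −0.16 to 0.26. Sod3, the extracellular enzyme, lay at 11.42, 11.29 and 10.92 without diabetes and at 11.16, 11.23 and 11.20 with it (log2 fold change −0.010, 95% interval −0.46 to 0.44).

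Cat, the peroxisomal catalase, fell. Its values were 12.99, 12.97 and 12.76 in nondiabetic and 12.57, 12.53 and 12.31 in diabetic vehicle-treated mice, which did not overlap. The log2 fold change of −0.43 (SE 0.12) is a 1.35-fold lower level, with adjusted p = 0.0309 (limma). With the mean of 18 proximal tubule markers as a covariate the log2 fold change was 0.016 (adjusted p = 0.958, limma). Of those 18 markers 15 were called lower, beside 8.63% of all listed genes. With the mean of 16 leukocyte markers as the covariate, Cat was at −0.31 (adjusted p = 0.249, limma). The call was lost when any of 4 mice was left out: adjusted p was 0.0594 without diabetic vehicle mouse 1, 0.0821 without diabetic vehicle mouse 3, 0.100 without nondiabetic vehicle mouse 1 and 0.107 without nondiabetic vehicle mouse 2 (limma). The call was also lost in the fit with the number in the mouse titles as a block (−0.36, adjusted p = 0.0906, limma), named the replicate block below. Titles of nondiabetic mice 2 and 3 bear the numbers 1 and 2, and those of nondiabetic mouse 1 of either treatment bear none. Only diabetic mice bear the number 3, so that fit compared diabetic with nondiabetic mice only within numbers 1 and 2.

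Gpx3 had the largest difference of the 10. Nondiabetic vehicle-treated mice held 18.18, 17.72 and 16.94 and diabetic ones 16.72, 16.79 and 15.69. The groups did not overlap, but the spread within each was wide, and the log2 fold change of −1.21 (SE 0.40), a 2.31-fold lower level, had adjusted p = 0.0542 (limma). Gpx1 overlapped between the groups (12.96 to 13.53 against 12.34 to 13.21, log2 fold change −0.36, adjusted p = 0.317, limma), as did Prdx1, whose log2 fold change of 0.051 had a 95% interval of −0.14 to 0.25. In all, 4 members were lower and 1 was higher in every diabetic mouse, where 41.7% of all listed genes did not overlap between these groups (18.7% lower and 23% higher).

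How many of these near-threshold genes passed depended on the fit. With limma-voom on the recovered reads, 3 members were called (Nox4, Cat and Gpx3). Without nondiabetic ATG mouse 3, which is in neither group compared but enters the shared estimate of the spread, 4 were called (Nox4, Sod2, Cat and Gpx3), and without diabetic vehicle mouse 2 or nondiabetic vehicle mouse 3 the number was 3. Without diabetic ATG mouse 2 or nondiabetic ATG mouse 1 it was 2, and without diabetic vehicle mouse 1 or 3 or nondiabetic vehicle mouse 1 or 2 it was 0. Sizes moved as well: without diabetic vehicle mouse 3 the log2 fold change of Nox4 was −0.72 and that of Sod2 −0.27, and with the replicate block Nox4 was at −0.69, Gpx3 at −0.71 and Sod2 at −0.29. Without diabetic vehicle mouse 3 or nondiabetic vehicle mouse 1, Gpx1 went to −0.086 and −0.21 and Cyba to −0.17 and −0.14, and with the block they were at −0.097 and −0.12.

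ATG in diabetic mice, compared with vehicle in diabetic mice, is the contrast that bears on the treatment. None of the 10 genes was called by limma or by limma-voom (0 of 10 each), 1 had an unadjusted p under 0.05, and 0% of all listed genes were called, with 4.51% at an unadjusted p under 0.05. This comparison shares the diabetic vehicle-treated mice with the one above. The median log2 fold change of the 10 was 0.052, beside −0.0051 for all listed genes.

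The member with the unadjusted p under 0.05 was Cybb. It stood at 9.09, 8.24 and 8.96 in the ATG-treated diabetic mice, all below the 9.12 to 9.50 of the vehicle-treated ones, with a log2 fold change of −0.51 (SE 0.22, adjusted p = 1.00, limma). Without diabetic ATG mouse 2, the lowest of them, it was −0.25, and with the mean of 16 leukocyte markers as a covariate it was −0.063, where all 16 of those markers lay below 0 in this comparison (median −0.56, none called). Sod3 was also lower in every treated mouse (11.14, 11.14 and 10.41), with a log2 fold change of −0.30 and a 95% interval of −0.76 to 0.15, and without diabetic ATG mouse 3 it was −0.057. Across all listed genes, 10.2% did not overlap between these groups, and 6.32% were lower in that way. The other 8 members overlapped.

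Nox4 and Gpx3 each had wide intervals here. Treated diabetic mice held Nox4 at 10.72, 10.97 and 10.07 and Gpx3 at 16.91, 17.11 and 16.13. The log2 fold changes were 0.33 (95% interval −0.45 to 1.10) for Nox4 and 0.31 (−0.56 to 1.18) for Gpx3, and both turned to −0.050 and −0.040 without diabetic vehicle mouse 3, which had the lowest value of both genes in the study. For Cat, the treated mice had 12.51, 12.70 and 12.38, and the log2 fold change was 0.059 (95% interval −0.21 to 0.32). The narrowest intervals were those of Prdx1 (−0.15 to 0.24) and Sod1 (−0.27 to 0.14).

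In nondiabetic mice, ATG was compared with vehicle to give its effect without disease, in a comparison that shares the nondiabetic vehicle-treated mice with the first. Again 1 of the 10 genes was called, Cat, which was higher, where 5.22% of all listed genes were called and 0.709% were called higher. For the 10 genes the median log2 fold change was 0.45, beside −0.039 for all, and 9 of the 10 were above 0. At the unadjusted threshold 6 of the 10 had p under 0.05, against 30.2% of all genes. Of the 10, 7 were higher in every treated mouse than in every vehicle-treated one, while 14.4% of all listed genes were higher in that way and 34.4% did not overlap in either direction.

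Cat rose to 13.38, 13.70 and 13.35 under ATG from 12.99, 12.97 and 12.76 under vehicle, a log2 fold change of 0.57 (SE 0.12, 1.49-fold, adjusted p = 0.0259, limma). Leaving out any of 5 of the 6 mice compared took the adjusted p past the threshold: 0.0536 and 0.0888 without nondiabetic ATG mouse 1 or 2, and 0.0635, 0.0524 and 0.124 without nondiabetic vehicle mouse 1, 2 or 3 (limma). The log2 fold change itself stayed between 0.46 and 0.62 in those 5 fits. Without both unnumbered nondiabetic mice it was 0.66 (adjusted p = 0.119, limma). It was 0.34 (adjusted p = 0.113, limma) with the proximal tubule mean as a covariate and 0.48 (adjusted p = 0.126, limma) with the leukocyte mean. All 18 proximal tubule markers lay above 0 in this comparison, none of them called. Without nondiabetic ATG mouse 3, the count of members called rose to 3, and without diabetic vehicle mouse 3 it also rose to 3. With only the 2 groups compared in the fit, 0 of 14096 genes and so 0 members were called.

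Prdx1, a cytosolic peroxiredoxin, had values of 13.99, 14.03 and 13.91 under ATG and 13.75, 13.66 and 13.55 under vehicle. These groups lay apart, and the log2 fold change of 0.32 (SE 0.089) had adjusted p = 0.0582 (limma). With the replicate block, Prdx1 (adjusted p = 0.0384) and Nox4 (adjusted p = 0.0424) were called beside Cat (limma). Nox4 stood at 12.25, 12.59 and 11.94 under ATG, above each vehicle-treated mouse, with a log2 fold change of 0.91 (SE 0.35, adjusted p = 0.123, limma). Gpx3 held 18.57, 18.56 and 18.22 under ATG and a log2 fold change of 0.84 (SE 0.40, adjusted p = 0.177, limma). The remaining members had log2 fold changes from 0.22 (Sod1) to 0.50 (Gpx1), except Cybb, at −0.35 with a 95% interval of −0.84 to 0.14. Without nondiabetic vehicle mouse 3, the log2 fold change of Gpx3 was 0.50 and that of Sod3 was 0.24, against 0.39 with all mice. Without nondiabetic ATG mouse 2, Sod3 was at 0.22 and Cybb at −0.18.

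**Figure D2:**
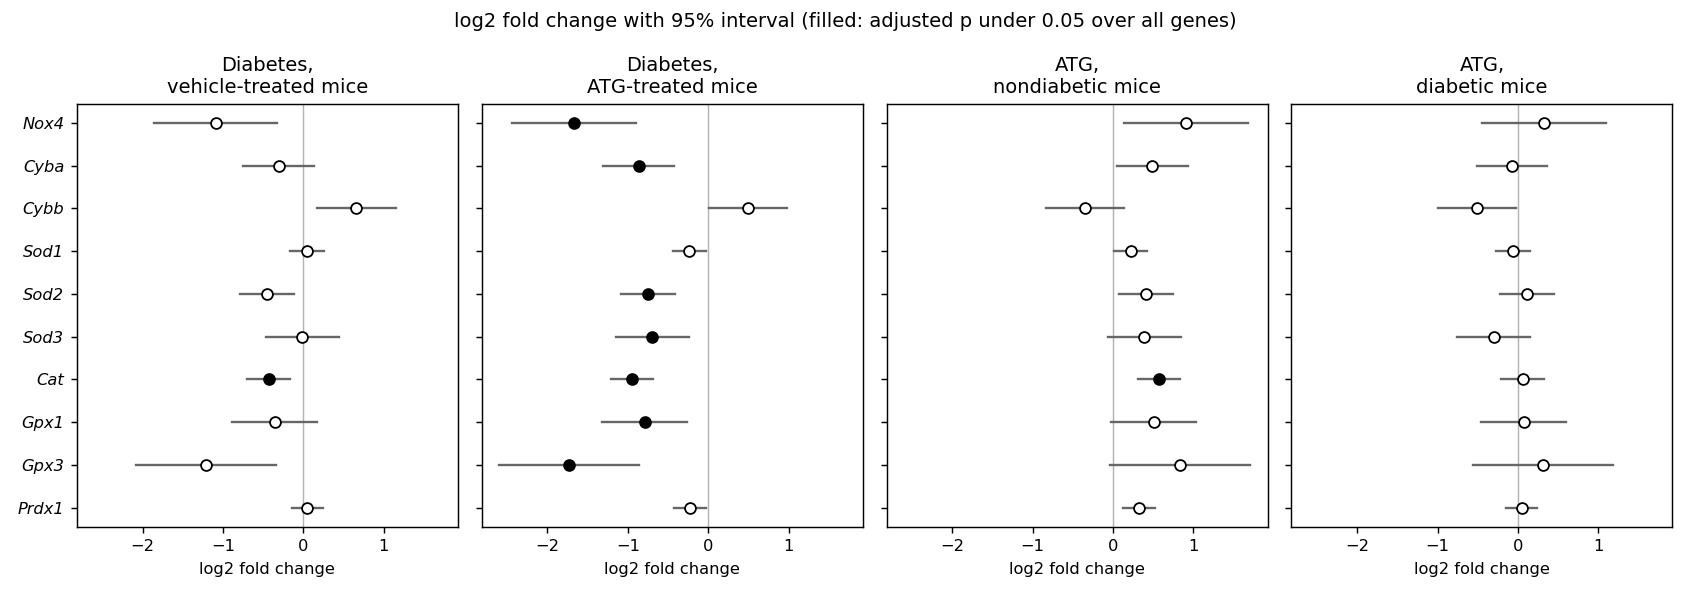
Log2 fold change (x axis) of each of the 10 genes with its 95% interval from limma in the 4 pairwise comparisons (panels). Filled points have an adjusted p under 0.05 over all genes: Cat for diabetes under vehicle and for ATG in nondiabetic mice, 7 genes for diabetes under ATG and none for ATG in diabetic mice.

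Diabetes in ATG-treated mice gave the largest differences. This comparison shares its ATG-treated groups with both ATG comparisons, so its values are set beside theirs and not counted as separate evidence. Of the 10 genes, 7 were called, all lower, where 46.7% of all listed genes were called and 20.8% were called lower. All 18 proximal tubule markers described below were called lower too, and with their mean as a covariate 0 members were called. In 9 of the 10 every diabetic mouse stood below every nondiabetic one, beside 25.6% of all listed genes (56.1% apart in either direction). All 10 had an unadjusted p under 0.05, against 54.4% of all genes. Their median log2 fold change was −0.77, beside 0.053 for all.

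The largest fall was that of Gpx3, with a log2 fold change of −1.73 (SE 0.40), a 3.32-fold lower level at adjusted p = 0.00517 (limma). Nox4 fell by 1.67 on the log2 scale (SE 0.35, 3.19-fold, adjusted p = 0.00343, limma). For Cat the log2 fold change was −0.95 (SE 0.12, 1.93-fold lower), with the lowest adjusted p of the 10, 0.000321 (limma). These 3 genes had also stood apart in vehicle-treated mice.

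Cyba (log2 fold change −0.87, adjusted p = 0.00556), Sod2 (−0.75, adjusted p = 0.00297), Gpx1 (−0.79, adjusted p = 0.0208) and Sod3 (−0.70, adjusted p = 0.0180) fell as well (limma). The calls of Sod3 and Gpx1 were lost when either of 2 mice was left out: without diabetic ATG mouse 3 their adjusted p was 0.0617 and 0.0833, and without nondiabetic ATG mouse 2 it was 0.0745 and 0.0821 (limma). The log2 fold change of Sod3 was then −0.45 and −0.53, and that of Gpx1 −0.63 and −0.64. Both calls were also lost with the replicate block (Sod3 −0.59, adjusted p = 0.0734, and Gpx1 −0.53, adjusted p = 0.0517, limma) and with the leukocyte marker mean as a covariate (Sod3 −0.53, adjusted p = 0.131, and Gpx1 −0.85, adjusted p = 0.0600, limma). The 3 members that did not pass were Sod1 (−0.23, adjusted p = 0.0632), Prdx1 (−0.23, adjusted p = 0.0566) and Cybb, the only one above 0 (0.50, adjusted p = 0.0867, limma, and 0.76 and called without diabetic ATG mouse 2, but 0.33 with adjusted p = 0.283 without nondiabetic ATG mouse 2). With a median-ratio scaling Sod1 and Prdx1 also passed, which made 9, while Sod1 was at −0.15 without diabetic ATG mouse 3 and Prdx1 at −0.14 with the replicate block (adjusted p = 0.198, limma).

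Whether the ATG effect depended on diabetes was tested as an interaction, the ATG effect in diabetic mice minus that in nondiabetic mice. None of the 10 was called by limma or limma-voom (0 of 10 each), where 0.546% of all listed genes were called and 0.00709% were called with a negative estimate. At the unadjusted threshold 3 members, Sod3, Cat and Prdx1, had p under 0.05, against 12.9% of all genes. All 10 estimates were below 0, from −0.16 (Cybb) to −0.69 (Sod3), with a median of −0.47 beside 0.015 for all listed genes. All 18 proximal tubule markers described below also lay below 0 in this contrast. All 10 podocyte, 10 endothelial and 9 mesangial and contractile markers lay above 0. Adjusted p of the members ran from 0.245 (Cat) to 0.815 (limma). The differences between both ATG effects, and between both diabetes effects, were therefore not shown for any member.

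Markers of proximal tubule, distal nephron and leukocytes moved with the groups. The mean of 18 proximal tubule markers (such as Slc34a1 and Lrp2) was 12.6 log2 units in nondiabetic vehicle-treated mice, 13.4 in nondiabetic ATG-treated mice, 10.9 in diabetic vehicle-treated mice and 11.4 in diabetic ATG-treated mice. Their summed level was 0.480% to 0.860%, 0.991% to 1.68%, 0.0986% to 0.273% and 0.161% to 0.350% of a library in the same order. For diabetes under vehicle 15 of the 18 were called lower, beside 8.63% of all listed genes, and under ATG all 18, beside 20.8%. No marker of the list was at 0 in any mouse (lowest 7.99 log2 units). The 10 distal nephron markers averaged 13.2, 13.7, 12.2 and 12.3 in the 4 groups. The 16 leukocyte markers averaged 8.62, 8.13, 9.24 and 8.69 and summed to between 0.0159% and 0.0516% of a library. For diabetes under vehicle 8 of the 16 were called higher, beside 10.2% of all listed genes. For ATG in nondiabetic mice all 18 proximal tubule markers lay above 0 (median log2 fold change 0.84), none of them called.

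Markers of the glomerulus's own cells differed between groups too. Means of the 10 podocyte markers were 14.7, 14.1, 14.9 and 14.8 log2 units in the same order of groups, those of the 10 endothelial markers 13.7, 13.1, 14.1 and 14.2, and those of the 9 mesangial and contractile markers 12.3, 11.4, 12.1 and 12.1. All 3 lists were thus lowest in nondiabetic ATG-treated mice. For ATG in nondiabetic mice, 6 of the 10 endothelial markers and 5 of the 9 mesangial and contractile markers were called lower, beside 4.51% of all listed genes, and the 10 podocyte markers all lay below 0 (median −0.60) with none called. For diabetes under ATG, 10 of 10 endothelial, 6 of 9 mesangial and contractile and 3 of 10 podocyte markers were called higher, beside 25.9% of all listed genes, and under vehicle 5 of 10 endothelial markers were, beside 10.2%. Of the erythrocyte markers 6 were listed, at means of 5.33, 4.86, 7.11 and 6.13 in the 4 groups. For diabetes under vehicle all 6 lay above 0 (median 1.85) and 3 were called higher, and for ATG in diabetic mice all 6 lay below 0 (median −1.03) with none called. They include globin genes that are near-identical copies (Hbb-b2 and Hbb-bt had the same values), so their reads may be split between them. The part of these markers in the members' values was not tested.

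Within the 6 nondiabetic and the 6 diabetic mice taken separately, each member was set against the mean of the proximal tubule markers and the mean of the leukocyte markers, 40 relations in all with two-sided exact permutation tests. Each set holds 3 vehicle-treated and 3 ATG-treated mice whose means differ, so the difference between treatments enters r and its p. For that reason r was also taken over the deviations from the mean of each treatment group, an addition made after the data were seen and given with no test. With the proximal tubule mean, 9 of the 10 members had a positive r in either set of mice, and the relation passed at a Benjamini-Hochberg adjusted p under 0.05 for 8 of them without diabetes and 4 with diabetes. The share of all listed genes that would pass was not computed, so whether these counts are unusual cannot be said. For Gpx3, Pearson's r was 0.935 in nondiabetic mice (exact p = 0.00278, adjusted 0.0185, Spearman's rho 0.943 with exact p = 0.0167) and 0.980 in diabetic mice (exact p = 0.00278, adjusted 0.0185, rho 0.943 with exact p = 0.0167), and without the 2 mice farthest from the median it was 0.914 and 0.961. For Nox4 it was 0.983 (exact p = 0.00139, adjusted 0.0185, rho 1.00 with exact p = 0.00278) and 0.961 (exact p = 0.00833, adjusted 0.0333, rho 0.771 with exact p = 0.103), and 0.900 and 0.803 without the 2 farthest mice. Cat followed at 0.950 (exact p = 0.00694, adjusted 0.0333, rho 1.00 with exact p = 0.00278) and 0.928 (exact p = 0.0111, adjusted 0.0342, rho 0.829 with exact p = 0.0583), and 0.910 and 0.744 without the 2. After correction over the 40 rank correlations, those of Nox4, Cat, Gpx1 and Prdx1 in nondiabetic mice stayed under 0.05 (0.0278 each), and that of Gpx3 was 0.0606 in both sets. Over the deviations from the group means, 9 of the 10 again had a positive r in either set. It was 0.851 and 0.983 for Gpx3, 0.959 and 0.959 for Nox4 and 0.933 and 0.938 for Cat in nondiabetic and diabetic mice, while Sod2 in nondiabetic mice went from 0.709 to 0.140.

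Cybb followed the leukocyte markers. Its r with their mean was 0.929 in nondiabetic mice (exact p = 0.0167, adjusted 0.0417, rho 0.943 with exact p = 0.0167, adjusted 0.0606) and 0.918 in diabetic mice (exact p = 0.00278, adjusted 0.0185, rho 0.943 with exact p = 0.0167, adjusted 0.0606). Without the 2 farthest mice it was 0.764 and 0.891, and over the deviations from the group means 0.874 and 0.850. In nondiabetic mice the other 9 members had a negative r with the leukocyte mean, and 3 of them passed: Nox4 (−0.949, exact p = 0.0111, adjusted 0.0342), Cat (−0.921, exact p = 0.0111, adjusted 0.0342) and Prdx1 (−0.874, exact p = 0.0125, adjusted 0.0357). Each of these 3 had a rho of −0.886 (exact p = 0.0333, adjusted 0.0784), and without the 2 farthest mice r was −0.573, −0.803 and −0.641, and for Cyba, Sod3 and Gpx1 it shrank to −0.0442, −0.149 and −0.164. For the leukocyte mean too, the share of all listed genes that would pass was not computed. Under ATG the leukocyte markers stood lower and 9 of the 10 members higher than under vehicle, which enters these values. Over the deviations from the group means r was −0.884 for Nox4, −0.882 for Cat and −0.739 for Prdx1, and negative for all 9. In diabetic mice none of these 9 passed, and 7 of the 9 had a positive r. Over the deviations from the group means, r in diabetic mice was positive for all 10 members. Without the 2 farthest diabetic mice r of these 9 ran from 0.531 (Sod2) to 0.983 (Cyba). In every library both values come from the same RNA, so a relation does not say which cells held the transcript.

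**Figure D3:**
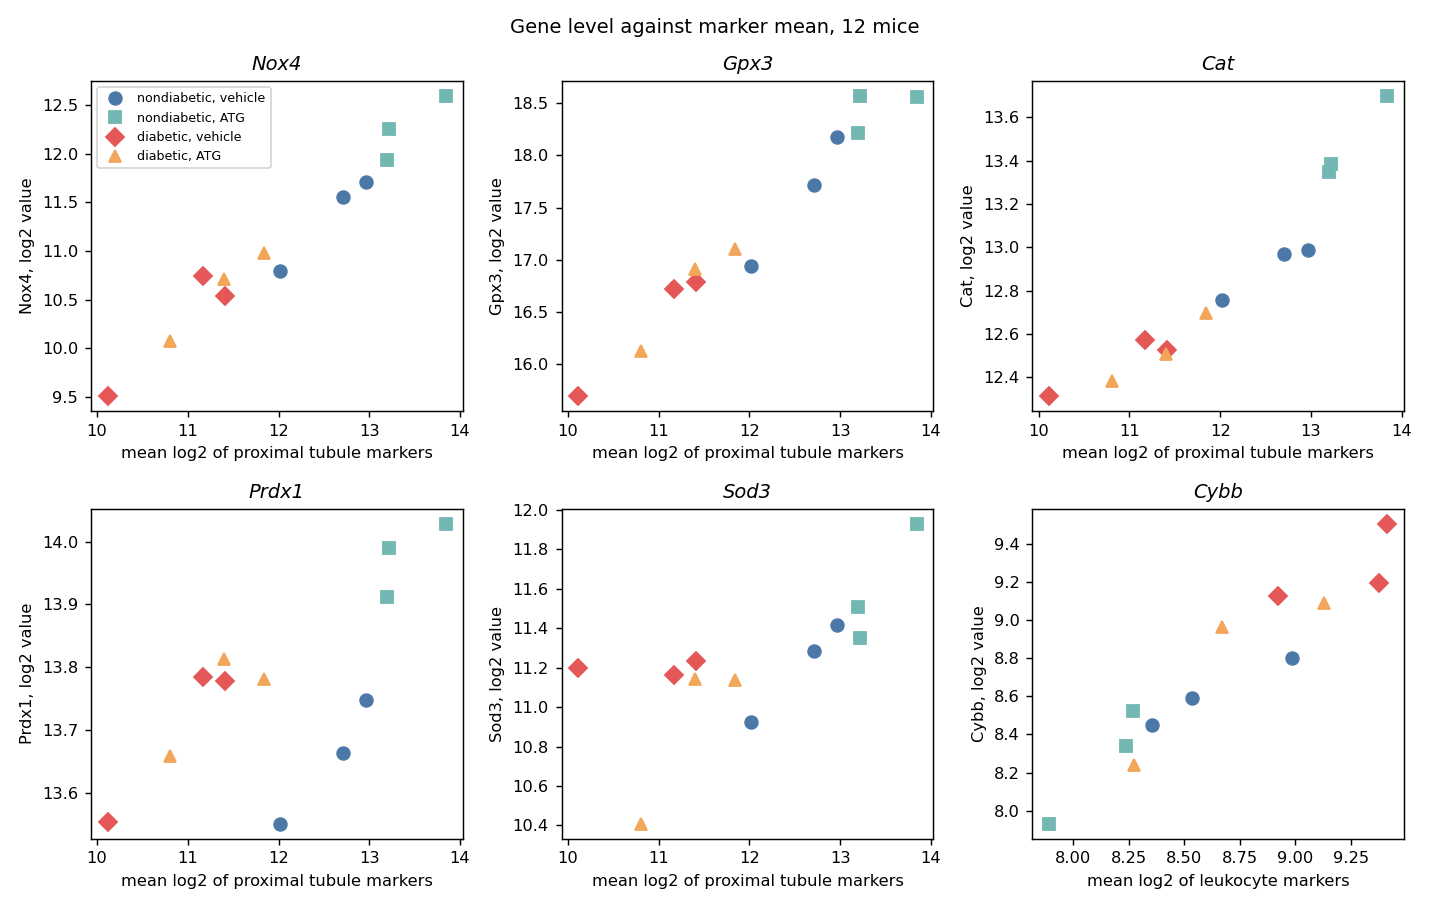
Log2 value of 6 of the genes (y axis) against the mean log2 value of the proximal tubule markers, or for Cybb of the leukocyte markers (x axis), 1 symbol per mouse and 1 shape per group. Nox4, Gpx3 and Cat rise with the tubule markers over all 12 mice, Prdx1 does so within the nondiabetic and within the diabetic mice, Sod3 within the nondiabetic mice, and Cybb goes with the leukocyte markers.

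With the proximal tubule mean as a covariate in the same fit, no member was called in any of the 5 contrasts (0 of 10 in each), and 11 of 14096 genes were called for diabetes under vehicle and 98 for diabetes under ATG. For diabetes under vehicle the estimates then ran from −0.050 (Sod2) to 0.64 (Gpx1), with 9 of the 10 above 0, and those of Nox4 (0.41), Cyba (0.51), Sod3 (0.63), Cat (0.016), Gpx1 (0.64) and Gpx3 (0.31) had changed sign. Under ATG they ran from −0.39 (Cat) to 0.45 (Gpx1), and those of Nox4 (0.19) and Gpx3 (0.16) lay above 0. For ATG in nondiabetic mice, the estimate of Nox4 became 0.13, that of Gpx3 0.057, that of Gpx1 −0.0068 and that of Cat 0.34 (adjusted p = 0.113, limma). With the leukocyte mean in its place, Cybb had a log2 fold change for diabetes of 0.16 (SE 0.17) under vehicle and of 0.040 (SE 0.17) under ATG. The covariate itself differed between the diabetic and nondiabetic groups (10.9 against 12.6 under vehicle and 11.4 against 13.4 under ATG) and between the nondiabetic groups (13.4 under ATG against 12.6), so in these 12 mice the amount of tubule cannot be told apart from the effect of diabetes on the members, nor from that of ATG in nondiabetic mice.

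**Figure D4:**
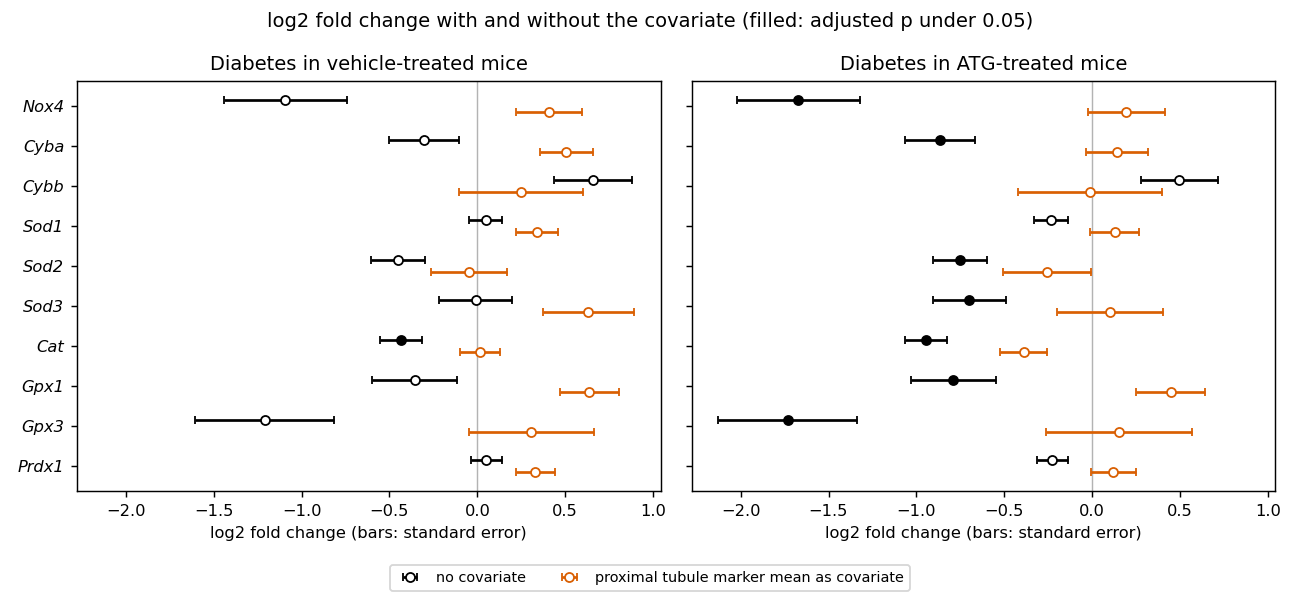
Log2 fold change for diabetes (x axis, bars show the standard error) of each of the 10 genes, in black without and in orange with the mean of the proximal tubule markers as a covariate, under vehicle (left) and ATG (right). Filled points have an adjusted p under 0.05, and none of the orange points is filled.

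The genes whose pattern over the 12 mice was most like that of each member were found by Pearson's r among all listed genes, as a description over libraries that share their makeup. For Nox4 these were Slc4a4 (0.996), Pipox (0.995) and Slc7a9 (0.992), and for Gpx3 they were Slc5a2 (0.993), Slc4a4 (0.992) and Folr1 (0.992). Slc4a4, Slc7a9 and Slc5a2 encode the basolateral bicarbonate cotransporter, a cystine and amino acid transporter and the glucose cotransporter SGLT2, all known from proximal tubule, and Slc4a4 and Slc5a2 are 2 of the 18 proximal tubule markers. For Sod2 they were Mpc1 (0.998), Sdhb (0.997) and Mdh1 (0.997), of which Mpc1 encodes a mitochondrial pyruvate carrier subunit, Sdhb a subunit of succinate dehydrogenase and Mdh1 the soluble malate dehydrogenase. For Cat they were Nit1 (0.992), Scp2 (0.991) and Nit2 (0.989), of which Scp2 encodes a peroxisomal lipid carrier.

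Cybb was most like Ptprc (0.975), which encodes the leukocyte surface protein CD45 and is 1 of the 16 leukocyte markers, then Mpeg1 (0.965) and Ms4a6d (0.960), both macrophage genes. Gpx1 was most like Gss (0.991), the glutathione synthetase, then Hoga1 (0.984) and Acp5 (0.984). Cyba was closest to Akr1a1 (0.979), Lamtor4 (0.974) and Shmt2 (0.972), and Prdx1 to Blvra (0.968), Uap1l1 (0.960) and Agmo (0.955). The lowest likeness was found for Sod3 (Slc6a13 0.956, Adam8 0.921, Dpp7 0.912) and for Sod1 (Mir692-3 0.940, Txndc17 0.930, Acot1 0.897). Among the members themselves, Nox4 and Gpx3 were the most alike pair (r = 0.989) and Cybb and Cat the least (r = −0.797).

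Other genes of the same pathways were read from 6 lists, in the comparison of diabetes under vehicle, in which 10.2% of all listed genes were called higher and 8.63% lower. Of 11 listed NADPH oxidase components other than the members, 2 were higher and 1 was lower. BC017643, now named Cybc1, whose product is a chaperone for the Nox2 complex, rose with a log2 fold change of 0.39 (adjusted p = 0.0179, limma) and Noxo1, an organiser subunit, rose by 0.42 (adjusted p = 0.0380, limma). Duox1, a dual oxidase, fell by 0.38 on the log2 scale (adjusted p = 0.0324, limma). The cytosolic phagocyte subunits Ncf1 (0.22) and Ncf4 (0.62), named after their values were seen, did not pass.

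Of 15 other oxidases that form peroxide, 5 were lower and 1 was higher. Maob, the monoamine oxidase B gene, had the largest change (log2 fold change −1.57, adjusted p = 0.00576). Dao (D-amino acid oxidase, −1.35, adjusted p = 0.0361, limma), named after its value was seen, came next, then Pipox (pipecolic acid oxidase, −1.20, adjusted p = 0.0340) and Ddo (D-aspartate oxidase, −1.18, adjusted p = 0.0114), and Smox, the spermine oxidase gene, rose by 0.53 (adjusted p = 0.0337, limma). The median of the 15 was −0.25, beside 0.0075 for all listed genes. In the same comparison 15 of the 18 proximal tubule markers were called lower, and with their mean as a covariate Dao (0.35) and Pipox (0.29) lay above 0 while Maob (−1.31) and Ddo (−0.76) stayed below it.

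In the glutathione list 1 of 8 genes was lower, Gclc, the catalytic subunit of the enzyme that limits glutathione synthesis (−0.71, adjusted p = 0.0296, limma), and none was higher. Among 17 peroxiredoxin and thioredoxin genes, 1 was higher, Prdx4, the peroxiredoxin of the endoplasmic reticulum (0.51, adjusted p = 0.00913, limma), and none was lower. Of 6 genes for selenoprotein synthesis and supply, Pstk (−0.46, adjusted p = 0.0227) and Sephs2 (−0.64, adjusted p = 0.0476, limma) fell, both of which act in making selenocysteine, the residue at the active site of Gpx1 and Gpx3. Of 3 copper supply genes, Atox1, a copper chaperone, rose (0.40, adjusted p = 0.0384, limma). Of the 60 genes in the 6 lists 14 were called, and with the proximal tubule covariate 0 were, Atox1 being nearest (0.79, adjusted p = 0.0590, limma). In that fit Sephs2 lay above 0 (0.17), while Pstk stayed at −0.46.

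The same lists were read in the other comparisons. For ATG in diabetic mice no gene of the 6 lists was called. For ATG in nondiabetic mice 1 of the 11 NADPH oxidase components was lower and 1 of the 17 peroxiredoxin and thioredoxin genes was higher, the mitochondrial Prdx3 (0.24, adjusted p = 0.0308, limma), named after its value was seen, beside 4.51% lower and 0.709% higher of all listed genes. For diabetes under ATG, 6 NADPH oxidase components were higher and 2 lower, 4 other oxidases were higher and 9 lower, and in the peroxiredoxin and thioredoxin list 1 was higher and 8 were lower, beside 25.9% higher and 20.8% lower of all listed genes. The glutathione list had 2 higher and 4 lower, the selenoprotein list 3 lower and the copper list 2 lower. The interaction called none of them.

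Read assignment could touch 1 member. Prdx1 on chromosome 4 (116685599 to 116700000, mm10, plus strand) overlaps the long noncoding RNA gene AV051173, and whether the counting used strand is not given in the sources used here. The other 9 have no overlapping gene in the GRCm38.p6 annotation. Gpx3 is on chromosome 11 (54902854 to 54910382), Cat on chromosome 2 (103453904 to 103485153) and Nox4 on chromosome 7 (87246649 to 87398708). Cyba lies on chromosome 8 (122424771 to 122432940) and Cybb on chromosome X (9435254 to 9469324).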

How the data were processed

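For every mouse the authors deposited the log2 values of the same 14096 genes, made on the mouse genome mm10 according to the submitters' processing notes, which also name limma. The aligner and the counting tool are not given in the sources used here. On the linear scale, each library had 1 step of which 83.4% to 84.0% of its values below 2000 reads were whole multiples within 0.02 reads. Those log2 values are scaled whole reads. Reads of all genes were recovered from that step by rounding, also where the value was not a whole multiple. A sorting step by a fluorescent protein stands in the labels' protocol, while the extraction text and the study's methods describe RNA of glomeruli. Nothing but the group is known of how mice were processed, and the title prefixes differ between the groups, so handling and group cannot be told apart.

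All 12 mice entered 1 fit of 4 groups in limma (version 3.58.1, R 4.3.3) with a trended prior variance and 5 contrasts. Calls needed a p under 0.05 after Benjamini-Hochberg adjustment for all 14096 genes. The members and lists were chosen with earlier results of these data known. The text names all 10 members, up to 3 genes per list and direction with the lowest p among those called for diabetes under vehicle, and the 3 genes most like each member, and it says so where others are named. Python 3.11.15 with matplotlib 3.10.9 drew the figures. The fit was also run on simulated data in which each gene varied independently. Genes of these libraries varied together (Nox4 and Gpx3, r = 0.989), so that run does not cover errors shared between genes.

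Alternatives were a median-ratio scaling, a pseudocount of 8, a linear minimum of 100 in every library, limma-voom, a prior without trend, only the groups compared, the replicate number in the titles as a block, marker means as covariates, each mouse left out in turn and both unnumbered nondiabetic mice left out. Some genes counted in the lists are not reported by name here. The blood, urine, protein, imaging and culture experiments are not analysed here.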

Additional observations from a re-analysis of the deposited data

How the results depend on the processing

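Of 1090 log2 fold changes (50 gene and contrast pairs under each alternative that gave a value), 997 kept their direction and their side of the threshold. Many of these could not change direction. A prior without trend, a linear minimum and a fit of only the groups compared return the same log2 fold change. So does leaving out a mouse of neither group compared. Rescaling moved the median of all genes by at most 0.047 log2 units, and the pseudocount and the linear minimum left the number of members called at its value in every contrast. The cause of the changes below was not tested.

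The number of members called for diabetes under vehicle, 1 as reported, was 3 with limma-voom, 2 with a prior variance without trend and 2 with only the groups compared, where Cybb joined Cat. It was 0 with the replicate block, 0 without both unnumbered nondiabetic mice, and 0 with the proximal tubule or leukocyte mean as a covariate. For ATG in nondiabetic mice, 1 as reported, it was 3 with the replicate block, and 0 with only the groups compared, without both unnumbered mice and with either covariate. For diabetes under ATG, 7 as reported, it was 0 with the proximal tubule covariate, and 5 with the leukocyte covariate and with the replicate block. When mice were left out one at a time, the number ran from 0 to 4 for diabetes under vehicle, from 0 to 3 for ATG in nondiabetic mice and from 5 to 9 for diabetes under ATG, and it was 0 throughout for ATG in diabetic mice and for the interaction.

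The proximal tubule covariate turned the sign of 20 log2 fold changes. For diabetes under vehicle these were Nox4 (0.41), Cyba (0.51), Sod3 (0.63), Cat (0.016), Gpx1 (0.64) and Gpx3 (0.31). For diabetes under ATG they were Nox4 (0.19), Cyba (0.14), Cybb (−0.013), Sod1 (0.13), Sod3 (0.10), Gpx1 (0.45), Gpx3 (0.16) and Prdx1 (0.12). For ATG in diabetic mice they were Nox4 (−0.079), Cat (−0.063), Gpx1 (−0.20), Gpx3 (−0.096) and Prdx1 (−0.029), and for ATG in nondiabetic mice Gpx1 (−0.0068). The leukocyte covariate turned Sod3 for diabetes under vehicle (0.18), Cat for ATG in diabetic mice (−0.047) and Cybb for ATG in nondiabetic mice (0.053). Sod3 for diabetes under vehicle, at −0.010 as reported, also became 0.10 with the replicate block and 0.093 without both unnumbered mice.

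With single mice left out, 12 of the 50 changed sign, none of them called. For diabetes under vehicle Sod1 ran from −0.0035 to 0.12, Sod3 from −0.15 to 0.093 and Prdx1 from −0.00063 to 0.13. For ATG in diabetic mice Nox4 ran from −0.050 to 0.58, Cyba from −0.21 to 0.089, Sod1 from −0.13 to 0.017, Sod2 from −0.072 to 0.29, Cat from −0.025 to 0.13, Gpx1 from −0.20 to 0.23, Gpx3 from −0.040 to 0.61 and Prdx1 from −0.030 to 0.092. The interaction of Cybb ran from −0.33 to 0.10.

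For mice with the same number in their titles, r of their deviations from the group means ran from −0.59 to 0.34. Mice with different numbers were not set against each other, so whether the number pairs mice cannot be said from these values. With the replicate block 1375 genes were called for diabetes under vehicle and 946 for ATG in nondiabetic mice, against 2659 and 736 without it.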
